A study of Drosophila melanogaster with 28 samples.

Results

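The genes rhi, del and cuff of Drosophila melanogaster encode 3 proteins that act together on piRNA clusters, and their transcripts were followed here through 4 sources of RNA. They were taken by symbol from gene tables in which 13892 genes had a single line, and all 3 passed the filter on low values, which 11488 genes passed. The same 3 genes were also targets of germline knockdown, in 3 of 20 knockdown libraries whose transposon RNA was measured.

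piRNAs are small RNAs that guide PIWI proteins to transposon transcripts. In the germline of the fly ovary many of their precursors come from dual-strand clusters, heterochromatic loci that are read from both strands without ordinary promoters. Rhino, the product of rhi, is a germline member of the HP1 family and binds these loci through its chromodomain. Deadlock, from del, binds Rhino and brings in the machinery that starts transcription. Cutoff, from cuff, is related to the decapping enzyme Rai1 and lets cluster transcripts be made unspliced and without early termination.

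Gene expression was measured in 8 RNA libraries, 2 of each source. OSS (ovarian somatic sheet) cells are grown in culture and hold no germline. The ovaries were dissected whole and therefore hold germline with its somatic follicle cells, the carcass is the fly body left after the ovaries were taken out, and the embryos were 0 to 2 h old. Flies and OSS cells were kept at 25 °C. Transposon families were measured in the same 2 ovary libraries and in ovaries carrying nos-GAL4, which drives expression in germline cells, with an RNAi construct against 1 gene. There was 1 library for each of 18 target genes, among them rhi, del and cuff, and there were 2 for the control target w, an eye pigment gene. The labels give no further genotype or age, and they do not say whether replicates came from separate animals or cultures, so the p-values measure the spread between these libraries, which may be technical.

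The source labels were compared with marker genes. The summed FPKM of 12 germline markers was 17.8 and 12.0 for OSS libraries, 2071 and 2138 for ovary, 109.5 and 124.5 for carcass and 685 and 677 for embryo, and plu and gnu were at 0 in OSS replicate 2. Relative to ovary the mean sum was 0.708% in OSS and 5.56% in carcass. The 8 markers of ovarian soma went against the labels, with a mean sum at 202.8% of ovary in carcass and 13.1% in OSS. Most of the carcass sum was the yolk protein gene Yp1, which fat body also makes, at 2930 and 3816 FPKM. By mean, Fas3, slbo and bnl were also highest in carcass, and dec-1 and Cp36 were highest in ovary. Only ptc and tj were highest in OSS. The values of tj, a marker of somatic gonad cells, were 84.2 and 87.9 in OSS, 26.6 and 23.7 in ovary and 3.12 and 3.93 in carcass. Relative to ovary, muscle, fat body and neuron or eye markers summed to 3745%, 5869% and 1828% in carcass. FPKM corrects for both transcript length and library size, so levels of different genes can be set side by side. In embryo, bcd, the anterior determinant, was at 291 and 289 and above its ovary values of 69.8 and 71.9, whereas nos, the posterior determinant, was at 4.25 and 7.36 against 244 and 253 in ovary. Of 4315 genes at an FPKM of 10 or more in the 6 other libraries, 204 were listed at 0 in embryo replicate 1, 137 in embryo replicate 2 and 70 in both, so a 0 in embryo cannot be told apart from a failed estimate. Read totals behind the FPKM are unknown, and in these bulk samples fewer cells of a type and less RNA per cell cannot be told apart.

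The transcript of rhi was most abundant in ovary, at 56.1 and 59.0 FPKM. It stood at 25.1 and 25.2 in OSS, at 31.3 and 26.1 in embryo and at 4.94 and 5.35 in carcass. Ovary lay above every other library, the OSS libraries lay below both embryo libraries by a small margin, and carcass lay below all.

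del was the most abundant of the 3 genes in ovary, at 93.8 and 101.5 FPKM. Its values were 20.0 and 26.9 in OSS, 7.22 and 9.78 in embryo and 4.80 and 8.75 in carcass. The ovary libraries were again far above the rest, and the carcass and embryo values overlapped.

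cuff was the least abundant in every library. It measured 12.0 and 8.82 FPKM in ovary and 14.4 and 9.37 in OSS, where the values of the groups overlapped. In carcass it was at 0.164 and 1.34, and in embryo it was listed at 0 in replicate 1 and at 0.709 in replicate 2. These low values also overlapped. Within the ovary libraries, rhi ranked above 79.0% and 80.7% of gene values, del above 90.0% and 91.4%, and cuff above 53.8% and 52.5%.

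**Figure D1:**
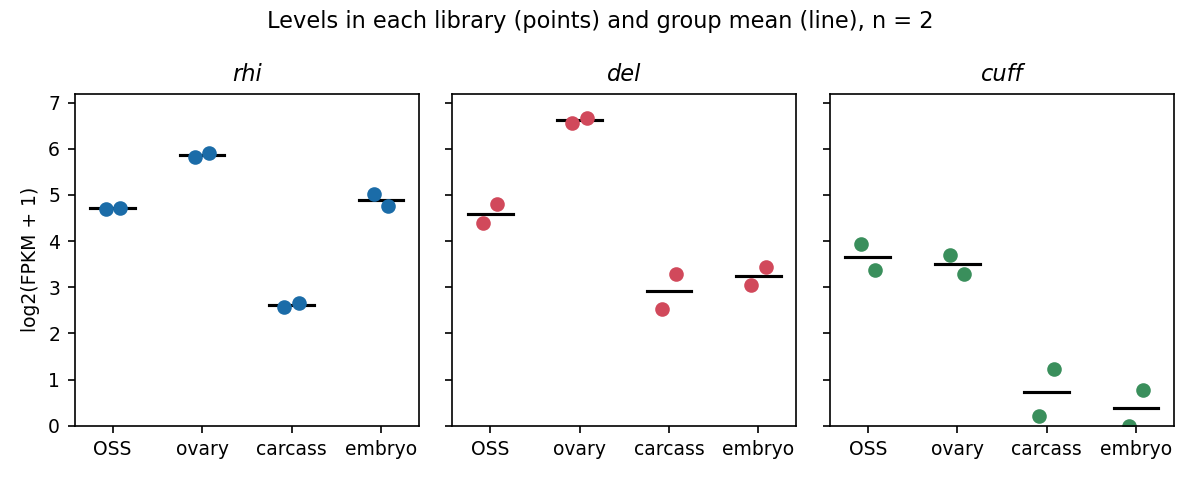
Level of rhi, del and cuff as log2(FPKM + 1) in each of 8 libraries; points are libraries and lines are means of the 2 libraries of a source. The highest group is ovary for rhi and del, whereas the cuff points of OSS and ovary overlap, and the cuff points of carcass and embryo lie near 0.

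All 3 transcripts were higher in ovary than in carcass, the comparison that sets the ovary against the rest of the fly. rhi averaged 57.5 ± 2.07 FPKM in ovary (SD, n = 2, as for all later means) and 5.14 ± 0.290 in carcass, which on the log2 scale is 3.25 apart (SE 0.14, adjusted p = 4.5e-06 with limma). del averaged 97.7 ± 5.46 and 6.77 ± 2.80 and differed by 3.71 (SE 0.29, adjusted p = 2.89e-05 with limma). cuff averaged 10.4 ± 2.22 in ovary against its carcass values of 0.164 and 1.34, and the fitted difference was 2.77 (SE 0.45, adjusted p = 0.00109 with limma), or 4.07 with a pseudocount of 0.1. Differences are on the log2(FPKM + 1) scale, which understates the change of a low gene such as cuff, and p-values are Benjamini-Hochberg adjusted over 11488 genes. By the same test 43.5% of all genes were higher in ovary, so the call alone does not set these genes apart. What remained in carcass was 8.94% of the ovary level for rhi, 6.94% for del and 7.23% for cuff, beside 5.56% for the summed germline markers, all 12 of which were detected there and 1 of which, bam, fell below an FPKM of 1 in carcass replicate 2. The part of germline RNA in these carcass values was not tested. After median-ratio scaling the differences were 2.47, 2.92 and 2.22, and all were still called.

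The comparison of ovary with OSS sets a tissue that holds germline against a somatic line that does not. rhi was higher in ovary by 1.16 (SE 0.14, adjusted p = 0.000789 with limma), and del by 2.03 (SE 0.29, adjusted p = 0.00146 with limma). cuff was not called, with a difference of -0.16 (SE 0.45, adjusted p = 0.812 with limma) and a 95% interval from -1.24 to 0.92. Among all genes 18.8% were higher in ovary and 23% lower. In OSS rhi therefore kept 43.7% of its ovary level, del 24.0% and cuff 114%. The germline markers summed to 0.708% of ovary in those libraries, and vas, the germline helicase, stood at 1.82%.

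All 3 genes were also well above carcass in OSS. The log2 differences were 2.09 for rhi (SE 0.14), 1.68 for del (SE 0.29) and 2.94 for cuff (SE 0.45), with adjusted p from limma of 1.77e-05, 0.00135 and 0.000829. This contrast called 46.1% of all genes higher in OSS and 29.9% lower. After median-ratio scaling the differences shrank to 1.25 for rhi and 0.84 for del, which were still called.

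From ovary to embryo the 3 genes parted. del averaged 8.50 ± 1.81 in embryo, 8.71% of ovary, with a log2 difference of -3.39 (SE 0.29, adjusted p = 3.99e-05 with limma). cuff stood at a difference of -3.11 (SE 0.45, adjusted p = 0.000711 with limma), and its size depends on the pseudocount, being -5.19 when 0.1 was added in place of 1. rhi averaged 28.7 ± 3.72, 49.9% of ovary, and its difference of -0.98 (SE 0.14, adjusted p = 0.000711 with limma) turned to 0.08 once libraries were quantile normalized and to 0.26 once they were scaled by median ratios, neither of them called. del and cuff stayed lower under both, at -1.89 and -2.19 for del and -2.04 and -2.48 for cuff. The median of all genes was -0.58 in this contrast as deposited but 0.18 in the quantile-normalized values and close to 0 in the median-ratio scaled ones. As deposited, 44.8% of all genes were lower in embryo and 15.1% higher.

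Against carcass, only rhi of the 3 was called higher in embryo, by 2.27 (SE 0.14, adjusted p = 5.99e-06 with limma), or 4.11 when quantile normalized. For del the difference was 0.32 with a 95% interval from -0.36 to 1.01, and both other scalings called it higher, at 2.96 with quantile normalization and 0.74 with median-ratio scaling. cuff stood at -0.34 with an interval from -1.41 to 0.74, and at 0.72, not called, when quantile normalized. Among all genes 23.7% were higher in embryo than in carcass and 54.1% lower, and against OSS 17% were higher. Against OSS, rhi was not called at 0.18 (95% interval -0.16 to 0.52), though both other scalings called it higher in embryo, at 1.54 and 1.48. del was lower by -1.36 (SE 0.29, adjusted p = 0.00412 with limma) beside 51.4% of all genes, a difference that reversed to 0.82 with quantile-normalized values and stood at -0.10, not called, with median-ratio scaling. cuff was lower in embryo than in OSS by -3.27 (SE 0.45, adjusted p = 0.00046 with limma).

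**Figure D2:**
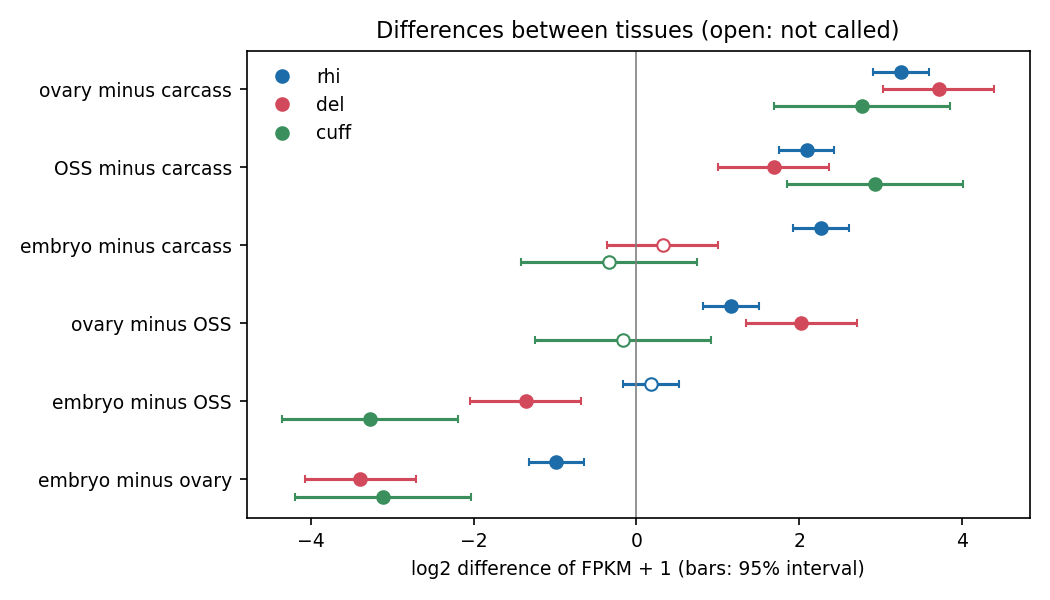
Log2 differences of FPKM + 1 between pairs of sources for rhi, del and cuff, with 95% intervals from limma; filled points have an adjusted p under 0.05 and open points do not. For all 3 genes ovary and OSS lie above carcass, and the open points are rhi in embryo minus OSS, del in embryo minus carcass, and cuff in ovary minus OSS and in embryo minus carcass.

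The order of the sources thus differed between the genes as deposited. For rhi it was ovary, then embryo and OSS with no call between them, then carcass. For del it was ovary, OSS, then embryo and carcass with no call between them. For cuff, OSS and ovary came first with no call between them, followed by carcass and embryo, also with none.

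The proportions of the 3 transcripts within a library were compared as log2 ratios of FPKM + 1, which still depend on the added 1, and on scaling, where cuff is near 0. For rhi over del the ratio measured 0.31 and -0.09 for the OSS libraries, -0.73 and -0.77 for ovary, 0.03 and -0.62 for carcass and 1.98 and 1.33 for embryo. Embryo was the source in which rhi most exceeded del, and in ovary del exceeded rhi in both libraries. For rhi over cuff the group means ran from 1.05 ± 0.41 in OSS through 1.90 ± 0.64 in carcass and 2.37 ± 0.33 in ovary to 4.50 ± 0.73 in embryo. The ratio of del to cuff averaged 0.94 ± 0.69 in OSS and 3.13 ± 0.36 in ovary, with carcass at 2.19 ± 0.18 and embryo at 2.85 ± 0.27. Without the added 1 the sources with little cuff take another order. The plain FPKM ratio of rhi to cuff was 4.69 and 6.69 in ovary, 30.1 and 4.0 in carcass and 36.8 in embryo replicate 2, and that of del to cuff was 7.85 and 11.5 in ovary, 29.2 and 6.54 in carcass and 13.8 in embryo replicate 2. Neither has a value in embryo replicate 1, where cuff is listed at 0. An exact permutation test of the F statistic over every way to form 4 groups of 2 gave p = 0.0381, 0.0286 and 0.019 for these ratios. Adjusted over the 3 ratios each was p = 0.0381 by the exact permutation test, where the smallest unadjusted p possible was 0.00952. These calls are fragile, since with a pseudocount of 0.1 the adjusted exact permutation p was 0.0667 for all 3, without the embryo libraries it was 0.267, 0.267 and 0.2, where the 15 possible groupings allow none below 0.0667, and leaving out OSS replicate 1, ovary replicate 1 or ovary replicate 2 ended every call, at adjusted values between 0.0571 and 0.0667. Leaving out carcass replicate 1 or 2 ended the call for del over cuff alone, at 0.0571 and 0.0762.

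Each of the 3 genes overlaps another gene in the current fly annotation, and the sources used here do not say whether the authors' counting used strand. rhi overlaps CG10936 on the same strand, with no shared exon. CG10936 had FPKM of 1.37 and 1.52 (OSS), 11.2 and 12.6 (ovary) and 13.2 and 10.5 (carcass), an order unlike that of rhi. The exons of del meet those of pths (listed as CG9253) on the opposite strand. pths measured 134 in both OSS libraries, 105.2 and 99.2 in ovary, 191 and 183 in embryo and 19.5 and 28.6 in carcass. By mean both genes were lowest in carcass, but pths was highest in embryo and del in ovary. The exons of cuff meet those of ERp60 on the opposite strand, at 215 and 189 in ovary, 293 and 295 in OSS, 86.8 and 97.1 in carcass and 39.2 and 43.5 in embryo. ERp60 and cuff thus had the same order of source means, and a part of ERp60 reads in the cuff values was not tested.

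Genes that act beside Rhino, Deadlock and Cutoff in the transcription and export of clusters were followed next, 16 in all. Between ovary and OSS 5 were higher in ovary and 2 lower, with 9 not called, and the median difference was -0.29 against -0.16 for all genes, of which 18.8% were higher and 23% lower. CG13741 (Bootlegger, which links cluster RNA to its exporter) was at 129 and 128 FPKM in ovary and 7.89 and 6.28 in OSS, a difference of 4.01 (SE 0.27). CG32135 (Nxf3, the exporter of cluster transcripts) was higher in ovary by 1.3, CG2678 (Kipferl, a zinc finger protein that guides Rhino to DNA) by 1.87 and Trf2, a TBP-related factor used at clusters, by 2.01. In the other direction CG12721 (Moonshiner, which Deadlock recruits to start transcription) was at 98.6 and 91.8 in OSS against 55.8 and 57.2 in ovary, which is -0.74 (SE 0.18, adjusted p = 0.0215 with limma). That call was lost without either OSS library or either ovary library, at -0.79 to -0.69, and at -0.66 with median-ratio scaling. TfIIA-S-2, a paralog of the small TFIIA subunit, went from 29.1 and 24.9 in OSS to 1.52 and 1.12 in ovary, or -3.59 (SE 0.41). The fifth gene called higher in ovary was CtBP, a corepressor, by 0.60. Hel25E, the RNA helicase UAP56 that binds cluster transcripts in the nucleus, stood at -0.29 (SE 0.14) and was not called, and neither were the THO subunits tho2, Hpr1, thoc5, thoc6 and thoc7.

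Of the same 16 genes 15 were higher in ovary than in carcass, with a median of 2.02 against 0.31 for all genes, of which 43.5% were higher. The exception was TfIIA-S-2 at 0.61 (SE 0.41). From ovary to embryo 5 were higher and 6 lower as deposited, beside 15.1% and 44.8% of all genes. CG13741 had the most negative difference of the list at -5.75 (SE 0.27), with embryo values of 2.07 and 0.890, and CG32135 stood at -2.66, or at -1.05 when quantile normalized and -1.45 with median ratios, all called. Trf2 and CtBP were higher by 1.96 and 1.80. CG2678 was not called at -0.03 (95% interval -0.49 to 0.42), and both other scalings called it higher, at 0.67 and 1.22. CG12721 stood at -0.82 (SE 0.18) as deposited and reversed to 0.20 and 0.42, neither called, under those scalings.

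The HP1 paralogs of rhi showed other patterns. Su(var)205, which encodes HP1a, had mean FPKM of 504 for OSS, 289 for ovary, 81.9 for carcass and 358 for embryo, above rhi in each source. It was lower in ovary than in OSS by -0.80 (SE 0.07, adjusted p = 0.000198 with limma), opposite to rhi. Between the same sources HP1b stood at -0.05 (SE 0.30), or 0.018 and 0.025 under the other scalings, and was not called. HP1c was not called either, at -0.86 (SE 0.34, adjusted p = 0.0814 with limma). CG14193 (HP1D3csd, a relative of rhi) was at 11.1 and 9.45 in OSS and at 0.966 and 0 in ovary, and its call at -3.0 was lost without OSS replicate 1, OSS replicate 2 or ovary replicate 2. HP1e and HP6 did not pass the filter. Of the 4 paralogs tested, 3 were higher in ovary than in carcass and 2 were lower in ovary than in OSS, beside 43.5% and 23% of all genes, and so few genes cannot be set apart from those shares.

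CG9125 (Rai1), the decapping relative of cuff, had its higher values in the same sources as cuff. They were 28.5 and 21.2 FPKM for ovary and 36.9 and 31.2 for OSS, against 0.980 and 6.55 for carcass and 0 and 1.68 for embryo. From ovary to embryo it differed by -3.97 (SE 0.69, adjusted p = 0.00176 with limma). Rat1, the nuclear exonuclease that works with Rai1, was instead higher in embryo by 1.72 (SE 0.15), and pcm, the cytoplasmic exonuclease, stood at -1.19 (SE 0.21) as deposited but at 1.01 with quantile normalization and 0.01 with median ratios.

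In the rest of the pathway, 13 heterochromatin genes were all higher in ovary than in carcass, beside 43.5% of all genes, and 7 were higher and 2 lower in ovary than in OSS, beside 18.8% and 23%. G9a, a histone methyltransferase, and wde, the partner of the methyltransferase Eggless, were higher in ovary by 3.04 and 2.23. egg itself, which makes the mark that Rhino binds, was not called at -0.23 (SE 0.23). Of 6 nuclear silencing genes, 2 were called higher in ovary than in OSS, CG3893 (Asterix) at 0.85 and ctp at 0.21. Both calls were lost without either OSS library or either ovary library, that of CG3893 also without either embryo library, and that of ctp with median-ratio scaling. In that comparison piwi was lower by -1.05 (SE 0.15). Among 23 genes of nuage and piRNA biogenesis 11 were higher in ovary and 5 lower, from vas at 5.38 to armi at -1.38. Of the 2 genes of the somatic pathway, fs(1)Yb was lower in ovary at -4.67 (SE 0.28) and CG31755 (SoYb) higher at 1.06 (SE 0.15). Over the 67 pathway genes tested, 26 were higher in ovary than in OSS and 13 lower, 64 were higher and 0 lower against carcass, and 23 were higher and 29 lower in embryo than in ovary. Over all genes these shares were 18.8% and 23%, 43.5% and 31.1%, and 15.1% and 44.8%. The count of 13 was 8 without OSS replicate 1, OSS replicate 2, ovary replicate 1 or ovary replicate 2, and 20 without carcass replicate 1 or 2. Scaling turned the embryo split to 37 higher and 17 lower with quantile-normalized values, beside 3566 and 3102 of all genes, and to 44 and 13 with median ratios, beside 3317 and 3673.

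**Figure D3:**
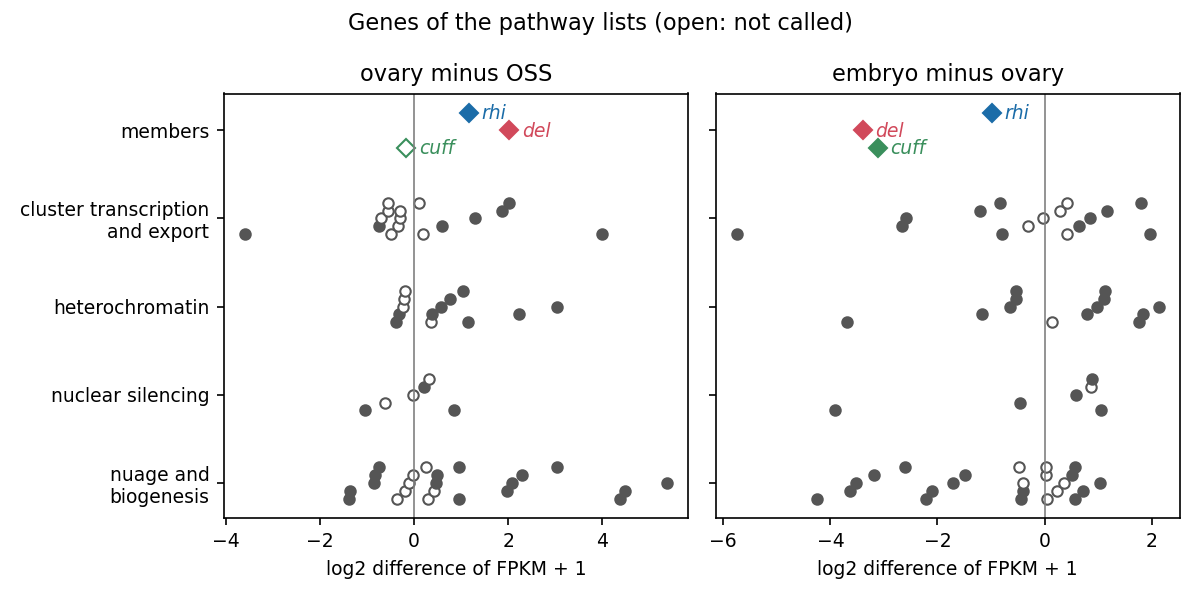
Log2 differences of FPKM + 1 for ovary minus OSS and for embryo minus ovary, as deposited, for rhi, del, cuff (diamonds) and genes of 4 pathway lists (circles); filled symbols have an adjusted p under 0.05. In both panels genes of each list lie on either side of 0. Scaling moves the embryo panel: rhi turns from -0.98 to 0.08 or 0.26. Over all 67 pathway genes tested, which include lists not drawn here, the split moves from 23 higher and 29 lower to 37 and 17 or 44 and 13.

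The genes whose pattern was most like each member were found by the distance between log2(FPKM + 1) values over the 8 libraries, each gene centred on its own mean, among 11195 other genes with a value in all 8. Nearest to rhi were Gem3, an RNA helicase of the SMN complex (distance 0.53), CG31755, the SoYb gene of the piRNA pathway (0.58), CG34406 (0.60), mus81, a DNA endonuclease (0.65), and Snm1 (0.67). For del they were Rab23, a small GTPase (0.61), Rad51D, a recombination gene (0.76), CG33156 (0.80), CG8414 (0.81) and CG17658 (0.92). For cuff they were CG3815 (0.47), Hira, a histone chaperone that acts on paternal chromatin (0.68), CG15896 (0.72), CG13343 (0.75) and CG33172 (0.76). None of the 3 members was among the 5 nearest of another: del ranked 1734 among the neighbours of rhi, at a distance of 2.65, cuff ranked 3845, at 3.76, and cuff ranked 485 among the neighbours of del, at 2.53.

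The knockdown libraries show what happened to transposon RNA when each of these genes was targeted in the germline. There is 1 library per knockdown, so differences from w have no replicate check and no test. Genome-mapped reads numbered 7550277 for rhi, 8092276 for del, 4922424 for cuff and 3831461 and 3037471 for w. The RNA level of the targets themselves was not analysed here, so the strength of the 3 knockdowns cannot be compared. Values per family are scores as deposited, whole numbers whose unit the sources used here do not state, and differences are of log2(score + 1) from the mean of both w libraries.

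Of 159 families, 15 were at least 4-fold above w in the cuff knockdown (9.43%), 10 in the del knockdown (6.29%) and 8 in the rhi knockdown (5.03%). As far below w, the cuff and del knockdowns had 0 families and the rhi knockdown 1 (0.629%), Dnet_R1A, at 12 against 52 and 124 in w and 12 and 11 in the ovary libraries. The 2 w libraries were 4-fold apart from each other in 1 family, and each ovary library had 1 above and 1 below. Among the 18 knockdowns cuff shared rank 4 by this count, del shared rank 8 and rhi ranked 12, between 23 families for shu and 1 for U2A. When every library was scaled to the same sum over families the counts above w fell to 5 for cuff and 4 each for del and rhi, and those below w became 17 for cuff and 52 for del and stayed at 1 for rhi. Before scaling, the summed scores were 2.85 times the w mean for cuff, 3.21 times for del and 1.57 times for rhi. Scaling to the same sum therefore lowers every family in these libraries relative to w.

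**Figure D4:**
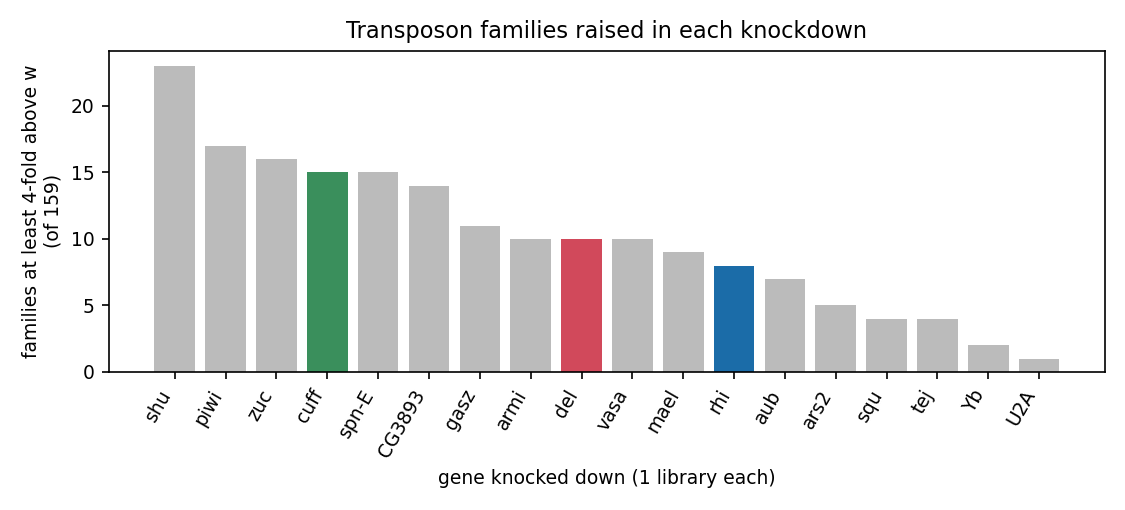
Number of transposon families, of 159, at least 4-fold above the mean of the 2 w libraries in each of 18 knockdowns with 1 library each; cuff, del and rhi are coloured. cuff reaches 15, del 10 and rhi 8, within the range from 23 for shu to 1 for U2A.

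The LTR retrotransposons 3S18, Burdock, blood and diver passed 4-fold in all 3 knockdowns. 3S18 scored 1867 with rhi, 10588 with del and 7669 with cuff targeted, against 141 and 107 in w. Burdock scored 1173, 3282 and 2191 in the same order against 80 and 51, blood 2395, 6056 and 3323 against 401 and 232, and diver 1118, 4279 and 2989 against 129 and 322. In each of these families del gave the highest and rhi the lowest of the 3 values, and all lay above both w libraries. On the log2 scale 3S18 stood at 3.91 for rhi, 6.42 for del and 5.95 for cuff. The other 15 knockdowns ran from -0.12 to 6.35 with a median of 5.30. The del value was above all 15, but by less than the 0.39 between the 2 w libraries. For Burdock 11 of the other 15 knockdowns lay below all 3.

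A further 6 families passed 4-fold with del and cuff but not with rhi: HMS-Beagle, mdg3, flea, gypsy12, micropia and Transpac. HMS-Beagle scored 1332 with del and 1609 with cuff targeted, and 155 with rhi, beside 151 and 91 in w. mdg3 scored 1369 and 1420 against 158 with rhi, with w at 151 and 115, and flea scored 1553 and 930 against 183, with w at 152 and 108. The rhi library was thus near the w libraries for these 3 families. It was not alone in this, since some of the other 15 knockdowns lay below rhi, del and cuff alike. They numbered 3 for HMS-Beagle, 7 for mdg3 and 5 for flea. gypsy12 and Transpac were in between, at log2 differences of 1.3 and 1.01 with rhi and of 3.68 and 2.58 with del.

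Besides these, TAHRE, gypsy11 and 1 further family passed 4-fold with cuff alone, HeT-A and Rt1c with cuff and rhi, and Rt1b and Dbuz_BuT6 with rhi alone, the last at 27 against 2 and 4 in w and 25 and 19 in the ovary libraries. The reverse pattern was seen in Rt1b, a non-LTR element, which scored 1189 in the rhi library, 114 in del, 123 in cuff and 179 and 221 in w. The other 15 knockdowns ran from -0.43 to 3.86 for this family, so del at -0.80 and cuff at -0.69 were the lowest of the 18. The ovaries without knockdown scored lower still for Rt1b, at 95 and 87, a log2 difference of -1.12 from w. The family gypsy stood at 1.11 with rhi and at -0.83 and -0.72 with del and cuff. Rt1c, at 1064 for rhi, 67 for del and 1284 for cuff, cannot be read against w, whose libraries scored 652 and 85.

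The telomeric elements HeT-A and TAHRE, which form the chromosome ends of the fly, had smaller differences than 3S18 and Burdock. HeT-A scored 565 for rhi, 475 for del and 1025 for cuff against 151 and 112 in w, with log2 differences of 2.11, 1.86 and 2.97, and the median of the other 15 knockdowns was 3.31. TAHRE stood at 1.39, 1.14 and 2.36 against a median of 2.14. In both elements cuff gave the highest of the 3 values.

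Of 21 families on a list of germline elements, 6 were 4-fold above w for rhi, 6 for del and 9 for cuff, with median differences of 0.34, 1.14 and 1.33 beside -0.12, -0.14 and 0.04 over all families. Of 13 families of the somatic list none was 4-fold from w in any of the 3 libraries, a count near the shares above w over all families, 5.03% for rhi, 6.29% for del and 9.43% for cuff, given the size of the list. ZAM, an element of follicle cells, stood at 0.06, -0.17 and -0.04. At the low end Doc, a non-LTR element, was at -1.19, -0.93 and -0.90, and the ovaries without knockdown stood at -0.99. Stalker4, among the lowest with rhi, scored 82 there and 251 with cuff against 164 and 176 in w. In the ovaries without knockdown it scored 83 and 74, near the rhi library.

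**Figure D5:**
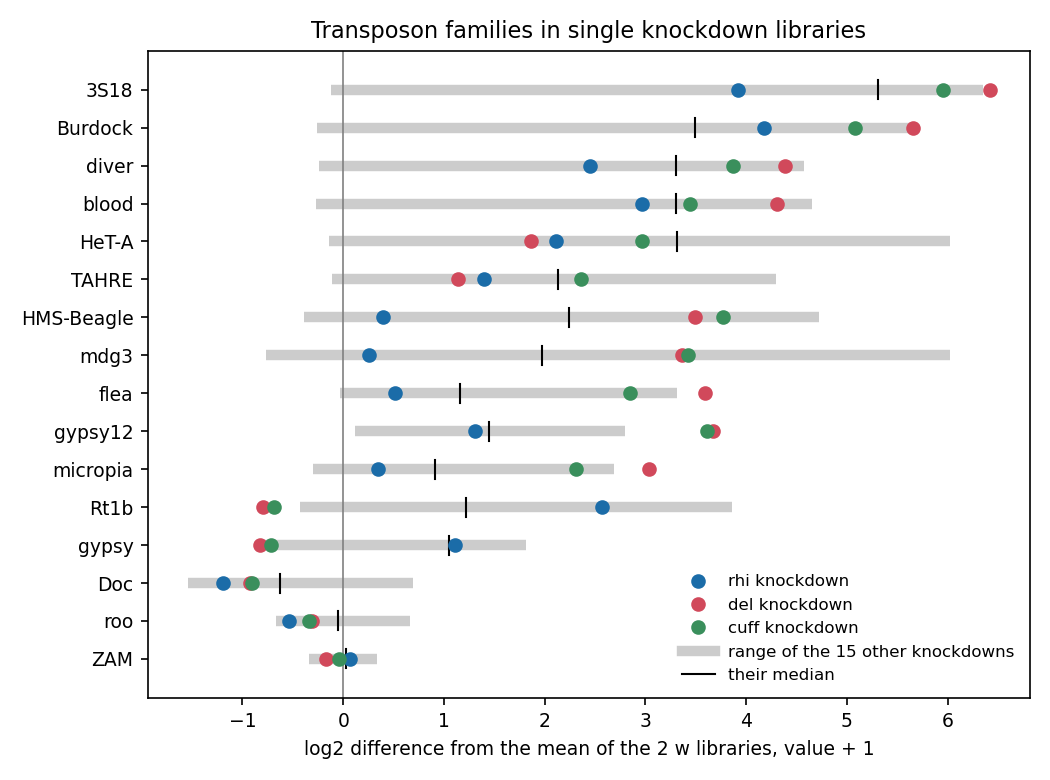
Log2 difference from the mean of the 2 w libraries for 16 transposon families in the rhi, del and cuff knockdowns (points), with the range and the median of the 15 other knockdowns (grey bar and black line). del and cuff lie close together for HMS-Beagle, mdg3 and gypsy12, where rhi lies near or below the median of the others, and Rt1b shows the reverse.

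Set directly against each other, which leaves w out, the del and cuff libraries were at least 2-fold apart in 13 of 159 families (8.18%). rhi and cuff were so in 26 (16.4%) and rhi and del in 31 (19.5%). The 2 w libraries differed that much in 11 families and the 2 ovary libraries in 0, so the count for del and cuff was close to that between the w replicates. Families 4-fold apart numbered 2 for del and cuff, 9 for rhi and cuff, 12 for rhi and del and 1 for the w pair. By median absolute log2 difference over families these knockdown pairs were alike, each at 0.32. The w pair stood at 0.42 and the ovary pair at 0.14. For rhi, del or cuff with another knockdown this median ran from 0.24, for ars2 and rhi, to 0.73. Pairs of other knockdowns ran from 0.18, for aub and spn-E, to 0.73. Whether so few families apart is particular to del and cuff was not tested against such pairs. Between cuff and del the families farthest apart were Rt1c, gypsy11 at 235 against 21, and G-element at 277 against 73. Between del and rhi they were mdg3, HMS-Beagle and flea on the del side and Rt1c, Rt1b and gypsy7 (30 against 161) on the rhi side. Between cuff and rhi HMS-Beagle, mdg3 and flea were again on one side, and Rt1b, Fw2 (35 against 178) and gypsy7 on the other.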

How the data were processed

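Gene values are FPKM per symbol as deposited. Per the submitters' processing notes, CASAVA 1.3, Bowtie, TopHat and Cufflinks were used with the build dm3; the sources used here state neither annotation nor strand setting. Carcass replicate 1 is FPKM by the authors' header too, but was recorded under another unit because 1070 lines hold no number; such lines were missing values. For transposons the authors deposited 1 whole number for each family, treated as a score.

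Names on several lines (93) were left out. Tests used limma 3.58.1 in R 4.3.3 (eBayes with trend, 2-sided, 1 fit of 8 libraries, 4 residual degrees of freedom) on log2(FPKM + 1), for genes reaching FPKM 1 in 2 libraries, and called an adjusted p under 0.05. The code was tested on simulated data. Of 176 families, 159 reached a score of 10 in 2 libraries and were kept, 40 of them named for other Drosophila species. Replicate numbers did not pair libraries (correlations of deviations from -0.07 to 0.02). The 3 genes and all lists were chosen with earlier results of these data known. Any pathway gene could be named. Families named are the highest 5 and lowest 3 per knockdown, the 3 farthest apart each way per pair, those of the 2 element lists and, chosen after their values were seen, those past 4-fold in any of the 3 knockdowns except 1. Current gene names were matched to file symbols through RefSeq names; His1 found no match. No sequence or position is given.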

Additional observations from a re-analysis of the deposited data

How the results depend on the processing

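No called difference of rhi, del or cuff between sources lost its call or changed sign with a pseudocount of 0.1, no filter, no trend, the 2 compared groups alone, any 1 library left out or, chosen after seeing the data, no embryo libraries. With the replicate block, no call of the 3 genes changed, and rhi and del stood at 1.16 and 2.03 for ovary minus OSS. Scaling did change embryo results. Quantile normalization gave 0.080 for rhi and -1.89 for del in embryo minus ovary, 0.82 for del and 1.54 for rhi in embryo minus OSS, 2.96 for del and 0.72 for cuff in embryo minus carcass, and 0.055 for cuff in ovary minus OSS. Median-ratio scaling gave 0.26 for rhi in embryo minus ovary, -0.10 for del and 1.48 for rhi in embryo minus OSS, and 0.74 for del in embryo minus carcass. The cause was not tested.

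Of pathway genes, quantile normalization called 37 higher and 17 lower in embryo minus ovary, 2 lower in ovary minus carcass and 15 lower in embryo minus OSS; median ratios gave 44 and 13, 3 and 11. The fit of 2 groups alone called 25 lower in ovary minus OSS. With 1 library left out, lower genes ran from 8 to 20 in ovary minus OSS, 0 to 2 in ovary minus carcass and 5 to 8 in embryo minus carcass. Uncalled differences changed sign: cuff in ovary minus OSS ran from -0.44 to 0.12, and in embryo minus carcass from -0.84 to 0.17, and del there from -0.051 to 0.70.

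The F of the ratios rhi over del, rhi over cuff and del over cuff was 16.0, 5.32 and 3.94 with a pseudocount of 0.1, and 3.83, 3.91 and 11.3 without embryo. It ran from 10.4 to 23.2, from 8.68 to 16.6 and from 7.62 to 22.6 with 1 library left out.

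Families above w numbered 5, 4 and 4 for cuff, del and rhi when libraries were scaled to the same sum, and 24, 20 and 15 at 2-fold. Families below numbered 17 for cuff and 52 for del after that scaling, 2, 4 and 3 at 2-fold, and 1, 1 and 0 against ovary as control. Scaling to the same sum lowers every family in these knockdowns relative to w, because their summed scores were larger. With 1 w library left out, 14, 10 to 12 and 7 were above w, and 0 to 1 below for del. With 1 library per knockdown and 2 per source, depth behind FPKM unknown and cuff near 0 in carcass and embryo, small differences of cuff were not detectable.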
